A study of Mus musculus with 6 samples.

Results

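The 10 genes described here, Aqp4, S100b, Apoe, Aldoc, Gja1, Gjb6, Clu, Cst3, Sparcl1 and Glul, are genes known for their expression in astrocytes, taken by symbol from a list of astroglial genes that leaves out Gfap. All 10 were among the 23038 mouse genes quantified, and 8 were abundant enough to be tested. They were measured in mouse primary oligodendrocyte precursor cells (mOPCs), the glial progenitors that give rise to myelinating oligodendrocytes, isolated at embryonic day 14.5. Poly(A) RNA was sequenced from 3 cultures given control siRNA (siNC) and 3 given siRNA for Qk (siQk). Cells of both groups were taken 72 h after the transfection. The siQk cells received 3 different siRNAs against Qk, and which library received which siRNA is not given in the sources used here. The groups carry no other stated difference in genotype, age or treatment.

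Astrocytes take up glutamate and convert it to glutamine, buffer potassium and water through membrane channels, couple to each other through gap junctions, and secrete lipoproteins and matrix proteins that act on neurons. Many of the genes that mark astrocytes in adult brain are also transcribed in other glial cells and in glial progenitors, so their presence in an OPC culture does not by itself identify an astrocyte. Qk encodes the Qki RNA-binding proteins, which bind ACUAAY motifs and act in splicing, stability and translation of glial mRNAs.

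Levels are given as RPKM (reads per kilobase of exon, scaled to each library's total), which is per length and can be set side by side between genes. Differences are log2 fold changes of siQk over siNC from edgeR's quasi-likelihood test on the estimated counts (tags), and calling a gene changed required both an FDR (Benjamini-Hochberg) under 0.1 and a P under 0.01. Libraries held 58166490 to 141045937 tags. Qk itself stood at 209, 206 and 163 RPKM in the 3 siNC libraries and at 51.3, 76.6 and 36.2 RPKM in the 3 siQk libraries. It fell by 1.98 on the log2 scale (SE 0.28, FDR 0.00311, n = 3 per group). The siNC replicate 1 library stood apart in its ribosomal precursor Rn45s, which took 3.11% of its tags against 0.169% to 0.389% in the other libraries. The values of the tested members and the counts over most lists are therefore also given without it. The p-values measure the spread between these cultures, which in siQk cannot be told apart from differences between the siRNAs against Qk. In such bulk RNA, fewer cells of a type and less RNA per cell cannot be told apart.

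Qk knockdown (KD) split the 10 genes. Apoe, Clu and Sparcl1, which encode secreted proteins, fell to between 32.9% and 51.5% of their siNC mean RPKM. Cst3, S100b, Glul and Aldoc stayed among the more abundant transcripts of the culture, with overlapping ranges in both groups. Aqp4 was scarce and was not called, and Gja1 and Gjb6 were close to absent. In total 3 of the 8 tested genes (37.5%) were called, against 31.0% of all 12505 tested genes. All 3 calls were toward lower levels in siQk, where the share over all tested genes was 17.2%, and none was toward higher levels, where it was 13.8%. A count of 3 in 8 is close to the share over all genes and does not set the list apart. No member reached an unadjusted P below 0.05 toward higher levels by edgeR's quasi-likelihood test, and 0 were called higher by DESeq2, limma voom, edgeR's exact test or its likelihood ratio test. The median log2 fold change of the 8 tested members was -0.21, beside 0.010 for all tested genes.

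**Figure D1:**
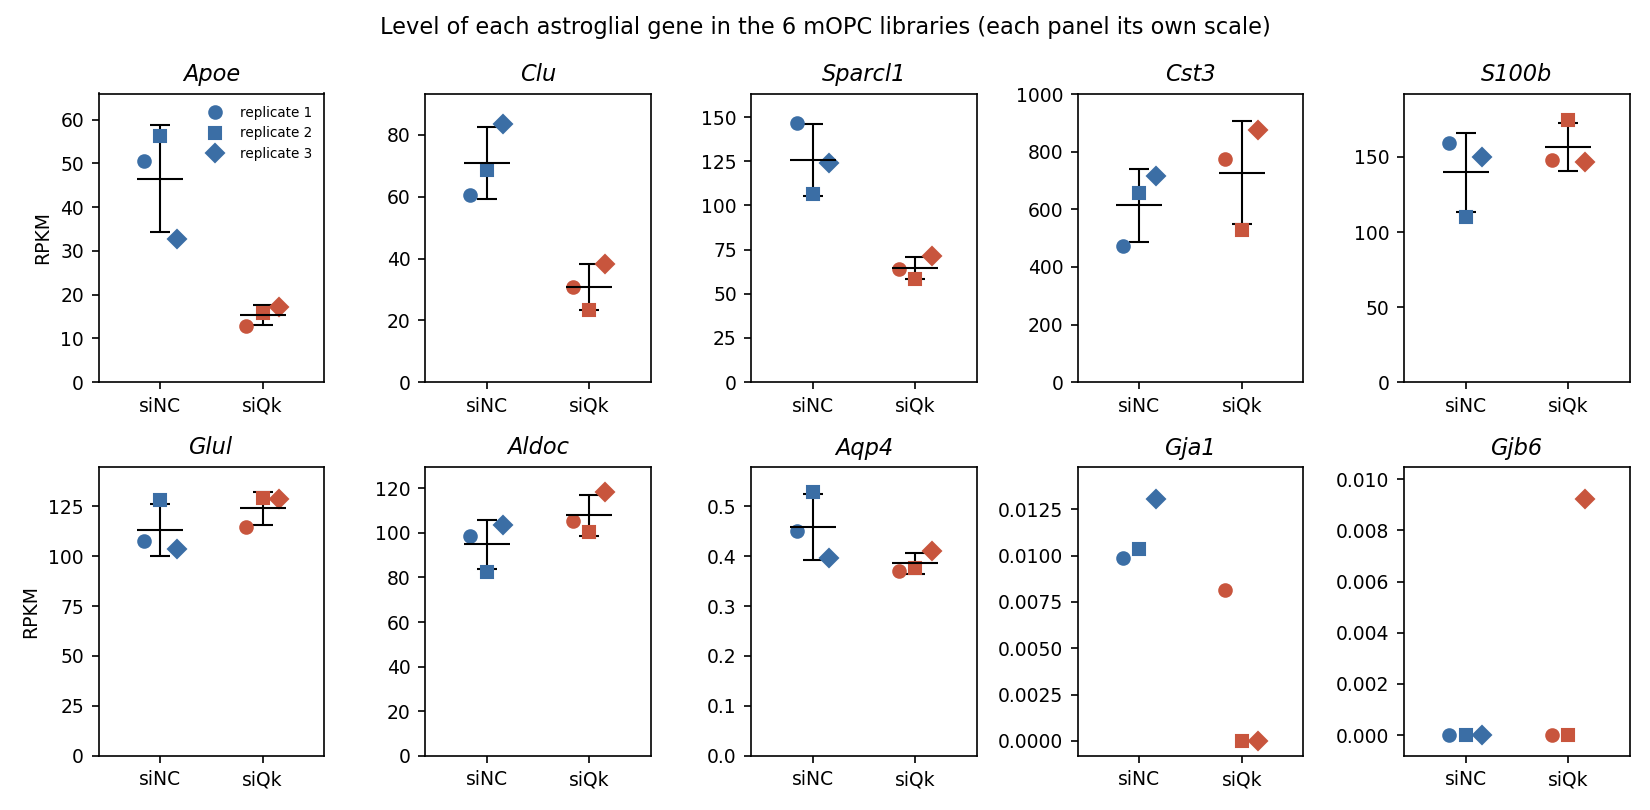
RPKM of each of the 10 genes (y axis, linear, each panel on its own scale) in the 3 siNC and 3 siQk libraries (x axis); marker shapes give the replicate number, horizontal lines the mean and bars the SD (n = 3), drawn for all genes but Gja1 and Gjb6. The siQk points lie below all siNC points for Apoe, Clu and Sparcl1, and the groups overlap for Cst3, S100b, Glul, Aldoc and Aqp4.

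The members ran in siNC from one of the most abundant transcripts to ones barely detected. Cst3 was highest at 615 ± 127 RPKM (SD, n = 3), a level above that of 99.8% of tested genes. S100b (140 ± 26.4), Sparcl1 (126 ± 20.3) and Glul (113 ± 13.1 RPKM) followed, and neighbours among these had overlapping ranges. Aldoc (94.9 ± 10.9) and Clu (70.8 ± 11.7 RPKM) also overlapped each other, and Apoe (46.5 ± 12.3 RPKM) lay below both. Aqp4 lay far below these 7 at 0.458 ± 0.0661 RPKM, above 2.55% of tested genes. In siQk the order of means was Cst3, S100b, Glul, Aldoc, Sparcl1, Clu, Apoe and Aqp4, so that Sparcl1 moved from rank 3 to rank 5 and stood below the ranges of Glul and Aldoc. The summed RPKM of the list did not separate the groups, at 1096, 1211 and 1312 in siNC and 1252, 1031 and 1397 in siQk, a sum to which Cst3 gave the largest part.

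Apoe encodes apolipoprotein E, the main lipid carrier secreted by glia (chromosome 7, 19696109 to 19699188, minus strand, mm10). It stood at 50.5, 56.3 and 32.7 RPKM in siNC and at 12.8, 15.8 and 17.3 RPKM in siQk. No siQk value reached the lowest siNC value, although siNC replicate 3 was well under the other siNC libraries. The log2 fold change was -1.76 (SE 0.23, 95% confidence interval -2.31 to -1.21, FDR 0.00267), a 3.39-fold lower level, and 1.30% of tested genes had a lower log2 fold change. Between 1633 and 7809 tags stood behind each Apoe value. Without siNC replicate 1 the log2 fold change was -1.66, and without siNC replicate 3 it was -1.98.

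Clu encodes clusterin, also called apolipoprotein J, a secreted chaperone and lipid-binding protein (chromosome 14, 65968483 to 65981547, plus strand). Its level was 60.5, 68.5 and 83.5 RPKM in siNC and 30.7, 23.3 and 38.1 RPKM in siQk. The groups were well apart, with the lowest siNC library above the highest siQk library. Clu fell by 1.35 on the log2 scale (SE 0.19, 95% confidence interval -1.80 to -0.90, FDR 0.00318), which is 2.55-fold, and 2.76% of tested genes fell further on this scale. The value without siNC replicate 1 was -1.41. The ratio of Apoe to Clu RPKM varied within both groups and was 0.834, 0.822 and 0.392 in siNC and 0.418, 0.678 and 0.454 in siQk.

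Sparcl1 encodes hevin, a secreted matrix protein of the SPARC family that astrocytes release at synapses (chromosome 5, 104079111 to 104113733, minus strand). It was at 147, 106 and 124 RPKM in siNC and at 64.1, 58.7 and 71.4 RPKM in siQk. All 3 siQk libraries were lower than all 3 siNC libraries and lay close together. The log2 fold change was -1.11 (SE 0.16, 95% confidence interval -1.49 to -0.74, FDR 0.00326), a 2.16-fold lower level, with 4.34% of tested genes lower. Without siNC replicate 1 it was -0.94. Over all tested genes, 4.69% were called and lower by at least 1 on the log2 scale, as these 3 were. For each of them an exact two-sided permutation test over the RPKM of the 6 libraries gave p = 0.1, the smallest value that 3 against 3 allows. Before TMM scaling, the RPKM ranges of the groups lay apart for 3 of the 8 tested members, beside 58.3% of all tested genes. All 3 were lower in siQk, beside 16.4% of all tested genes, and 0 were higher, beside 41.9%.

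**Figure D2:**
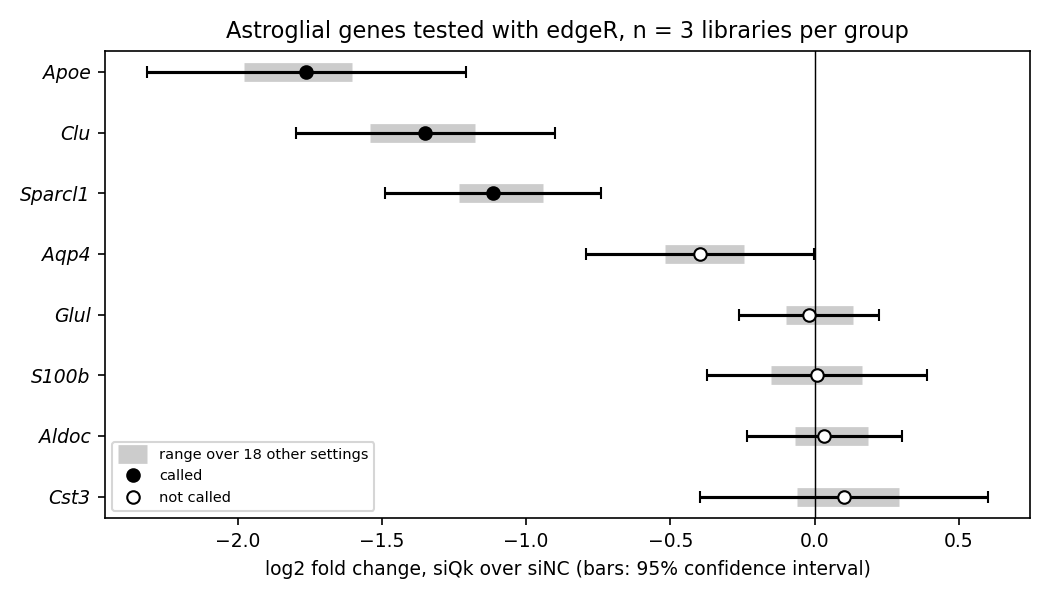
Log2 fold change of siQk over siNC (x axis) for the 8 tested astroglial genes (y axis), with 95% confidence intervals as bars, the range over 18 other settings as grey bands, and filled points for genes called changed. The intervals of Apoe, Clu and Sparcl1 end at -0.74 or lower, and those of Glul, S100b, Aldoc and Cst3 span 0.

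Cst3 encodes cystatin C, a secreted inhibitor of cysteine proteases (chromosome 2, 148871722 to 148875692, minus strand). It was at 472, 658 and 714 RPKM in siNC and at 776, 529 and 876 RPKM in siQk. The ranges overlapped and the libraries of each group were spread widely. Without siNC replicate 1 the log2 fold change was -0.025, a change of sign. With all libraries it was 0.10 (SE 0.21, 95% confidence interval -0.40 to 0.60, FDR 0.723), so the most abundant member was also the one with the widest interval among the 4 abundant members that were not called.

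S100b encodes a calcium-binding protein of the S100 family that marks astrocytes and is also made in the oligodendrocyte lineage (chromosome 10, 76253853 to 76261159, plus strand). It was at 159, 110 and 150 RPKM in siNC and at 148, 175 and 147 RPKM in siQk. The ranges of the groups overlapped in part, with siNC replicate 2 the lowest library and siQk replicate 2 the highest. The log2 fold change was 0.0069 (SE 0.16, 95% confidence interval -0.37 to 0.39, FDR 0.977), and 0.16 without siNC replicate 1.

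Glul encodes glutamine synthetase, the enzyme that turns glutamate and ammonia into glutamine (chromosome 1, 153899944 to 153909723, plus strand). Its level was 108, 128 and 104 RPKM in siNC and 115, 129 and 129 RPKM in siQk. Of the list Glul had the narrowest interval, with a log2 fold change of -0.019 (SE 0.10, 95% confidence interval -0.26 to 0.22, FDR 0.896), and -0.017 without siNC replicate 1. In the GENCODE annotation 116 exon bases of Glul are shared with Teddm2 on the opposite strand and 93 with Mir8114, neither of which was quantified, and the library kit does not keep strand, so reads in these bases cannot be assigned. S100b overlaps Dip2a on the opposite strand with 0 shared exon bases.

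Aldoc encodes aldolase C, the brain form of the glycolytic enzyme (chromosome 11, 78322968 to 78327781, plus strand). It was at 98.6, 82.6 and 104 RPKM in siNC and at 105, 100.5 and 118 RPKM in siQk, with overlapping ranges. The log2 fold change was 0.034 (SE 0.11, 95% confidence interval -0.24 to 0.30, FDR 0.830), and 0.10 without siNC replicate 1. The intervals of Cst3, S100b, Glul and Aldoc reached down to -0.40 at the lowest, and those of Apoe, Clu and Sparcl1 ended at -0.74 or lower.

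**Figure D3:**
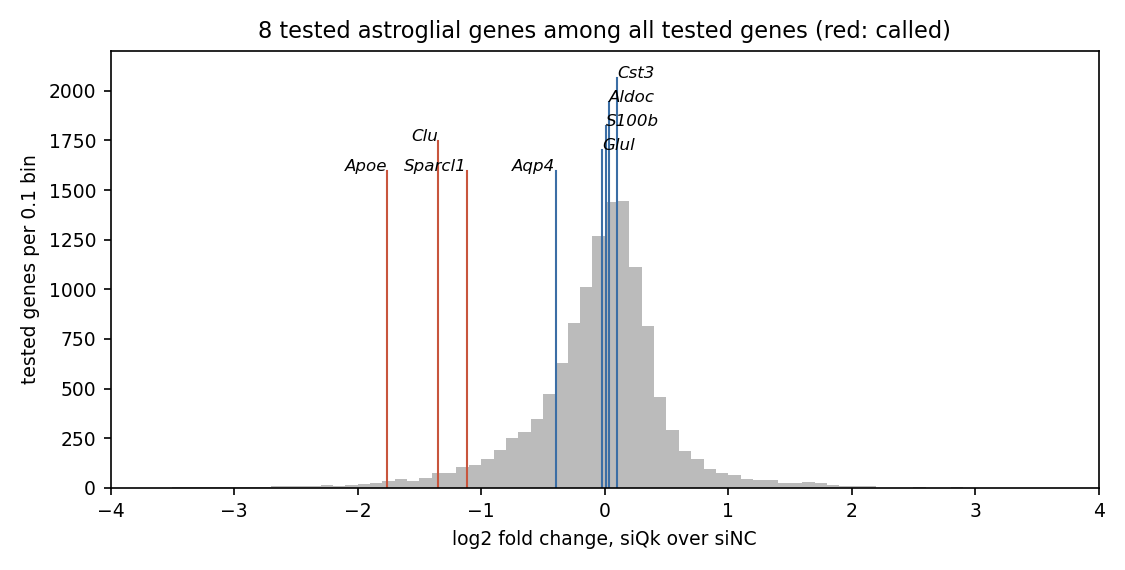
Histogram of log2 fold changes of siQk over siNC (x axis) for all 12505 tested genes (y axis, genes per bin), with vertical lines of arbitrary height for the 8 tested astroglial genes, red where called. Apoe, Clu and Sparcl1 lie in the lower tail and Glul, S100b, Aldoc and Cst3 near the centre.

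Aqp4 encodes aquaporin-4, the water channel of astrocyte endfeet. It stood at 0.450, 0.528 and 0.396 RPKM in siNC and at 0.371, 0.377 and 0.410 RPKM in siQk, from 162 to 362 tags per library. The highest siQk library exceeded the lowest siNC library in RPKM. After scaling by the TMM factors the same libraries no longer overlapped, with a lowest siNC value of 0.402 and a highest siQk value of 0.393. The log2 fold change was -0.40 (SE 0.17, 95% confidence interval -0.79 to -0.0016, unadjusted P 0.0493, FDR 0.101), which did not pass the thresholds, and it was -0.37 without siNC replicate 1.

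Gja1 and Gjb6 encode connexin 43 and connexin 30, the main gap junction proteins of astrocytes. Gja1 (chromosome 10, 56377330 to 56402513, plus strand) had 2, 4 and 6 tags in the siNC libraries and 4, 0 and 0 tags in the siQk libraries. Gjb6 (chromosome 14, 57123303 to 57133611, minus strand) had 0 tags in 5 libraries and 3 tags in siQk replicate 3. Both failed the abundance filter of an average logCPM above 0. A count of 0 allows up to 3 tags, counting error only. In the libraries with 0 tags this is 0.00680 to 0.0104 RPKM for Gja1 and 0.00829 to 0.0201 RPKM for Gjb6. When genes of low counts were fitted as well, neither was called (FDR 0.245 for Gja1 and 0.389 for Gjb6). The connexins of mature astrocytes were thus not detectable at this depth in several libraries, while Cst3 of the same list reached 876 RPKM.

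Other genes of each member's family or pathway were read from lists, and the genes named are taken from the 4 most abundant of each list and a few chosen for their role. Genes named outside that rule, here Sort1, Lrp2, Ctsa, Aqp11, Slc1a5, Sox9, Ppp1r3c, C1qa, C1qb and Cldn5, were chosen after their values were seen. The counts below stand against shares over all tested genes of 31.0% called, 17.2% called lower and 13.8% called higher. Of 10 tested partners of the apolipoproteins, 2 were called lower, 1 higher and 7 were not called, with a median log2 fold change of -0.20. These 3 calls of 10 are close to the 31.0% over all tested genes, and without siNC replicate 1 the calls were 2 lower and 2 higher. Abca1, the transporter that loads lipid onto apolipoprotein E, went from 40.2 ± 7.23 RPKM in siNC to 15.8 ± 0.706 RPKM in siQk and fell by 1.49 on the log2 scale (SE 0.11, FDR 0.000580). The sorting receptor Sort1 fell by 0.78, and Lrp2 rose from 0.0528 to 0.212 RPKM. The apolipoprotein E receptor Lrp1 was not called (log2 fold change -0.16, FDR 0.338). Apod, another secreted lipid carrier, averaged 4.71 ± 5.69 RPKM with siNC and 1.01 ± 0.389 RPKM with siQk, a log2 fold change of -2.36 that was not called (SE 0.89, FDR 0.0763).

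Of 5 tested SPARC family genes 1 was called lower and 1 higher (40.0% called, beside 31.0% over all tested genes), with a median log2 fold change of -0.024 and the same counts without siNC replicate 1. Sparc, the collagen-binding relative of Sparcl1, went from 197 ± 52.8 RPKM in siNC to 77.8 ± 7.61 RPKM in siQk and fell by 1.48 on the log2 scale (SE 0.18, FDR 0.00213). Smoc1, a matricellular protein, was at 37.6 ± 8.69 and 60.2 ± 1.63 RPKM and rose by 0.53 (SE 0.14, FDR 0.0245). The 2 genes of this family that pass the thresholds besides Sparcl1 thus moved in opposite directions.

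Of 7 tested cystatins and cathepsins, 4 (57.1%) were called lower and none higher, beside 17.2% and 13.8% of all tested genes, with a median log2 fold change of -0.68. The counts were the same without siNC replicate 1. These were the lysosomal proteases Ctsb, which fell by 1.38 from 192 ± 42.7 to 81.2 ± 5.59 RPKM (FDR 0.00125), Ctsd and Ctsl, which fell by 0.68 and 0.66, and Ctsa, which fell by 0.88. Cstb, an intracellular cystatin, was not called (log2 fold change 0.19, FDR 0.202). Cst3, whose protein inhibits cysteine cathepsins such as those of Ctsb and Ctsl, was itself not called.

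In the list of S100 genes 6 besides S100b were tested and 0 were called by edgeR's quasi-likelihood test. The list includes S100pbp, which encodes an S100-binding protein and not an S100 family member (log2 fold change 0.17, FDR 0.241). Of the 6 tested genes, 2 had an unadjusted P below 0.05, both toward lower levels. DESeq2 and limma voom called 0, and edgeR's exact test and likelihood ratio test called 1 each. The most abundant, S100a16, averaged 79.8 ± 15.7 RPKM with siNC and 84.8 ± 14.3 RPKM with siQk. The median log2 fold change of the list was -0.19. Without siNC replicate 1 it was 0.0083, and 0 were called. Aldoa, the widely expressed aldolase, was at 132 ± 9.51 and 129 ± 4.06 RPKM with a log2 fold change of -0.18 (FDR 0.0890). It had an unadjusted P below 0.05 and was called by none of DESeq2, limma voom, edgeR's exact test or its likelihood ratio test.

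Of 13 tested genes of glutamate and glutamine handling besides Glul, 4 were called lower, 1 higher and 8 were not called, and the median log2 fold change was 0.23. The 5 calls (38.5%) are near the share of 31.0% over all tested genes, and without siNC replicate 1 the calls were 4 lower and 2 higher. The glutamate transporters of astrocytes were among those that fell, Slc1a3 from 25.5 ± 3.03 to 10.9 ± 0.913 RPKM (log2 fold change -1.38, SE 0.12, FDR 0.000821) and Slc1a2 from 17.5 ± 4.06 to 9.34 ± 0.446 RPKM (-1.06, SE 0.17, FDR 0.00486). Glud1, glutamate dehydrogenase, fell by 0.61 and the glutamine transporter Slc38a2 by 0.44. Slc1a5, a neutral amino acid transporter, rose by 0.96 from 0.717 to 1.55 RPKM.

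Of the aquaporins and genes that anchor Aqp4, 7 were tested, 3 (42.9%) were called lower and none higher, beside 31.0% of all tested genes called in either direction and 17.2% called lower, with a median log2 fold change of -0.68. Without siNC replicate 1, 2 were called lower. Dtna and Dag1, parts of the dystroglycan complex that holds aquaporin-4 at endfeet, fell by 0.99 and 0.68 on the log2 scale. The third was the intracellular aquaporin Aqp11, which fell by 0.77. Among 11 connexins other than Gja1 and Gjb6, 7 were at or below 0.1 RPKM in every library and 2 were tested. Gjc3, a connexin of the oligodendrocyte lineage, was the abundant one, averaging 149 ± 24.2 RPKM with siNC and 96.2 ± 6.24 RPKM with siQk, and fell by 0.79 (FDR 0.00836). Gjb1, which pairs oligodendrocytes with astrocytes, was at 0.773 ± 0.381 and 0.349 ± 0.0923 RPKM and was too low to be tested.

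**Figure D4:**
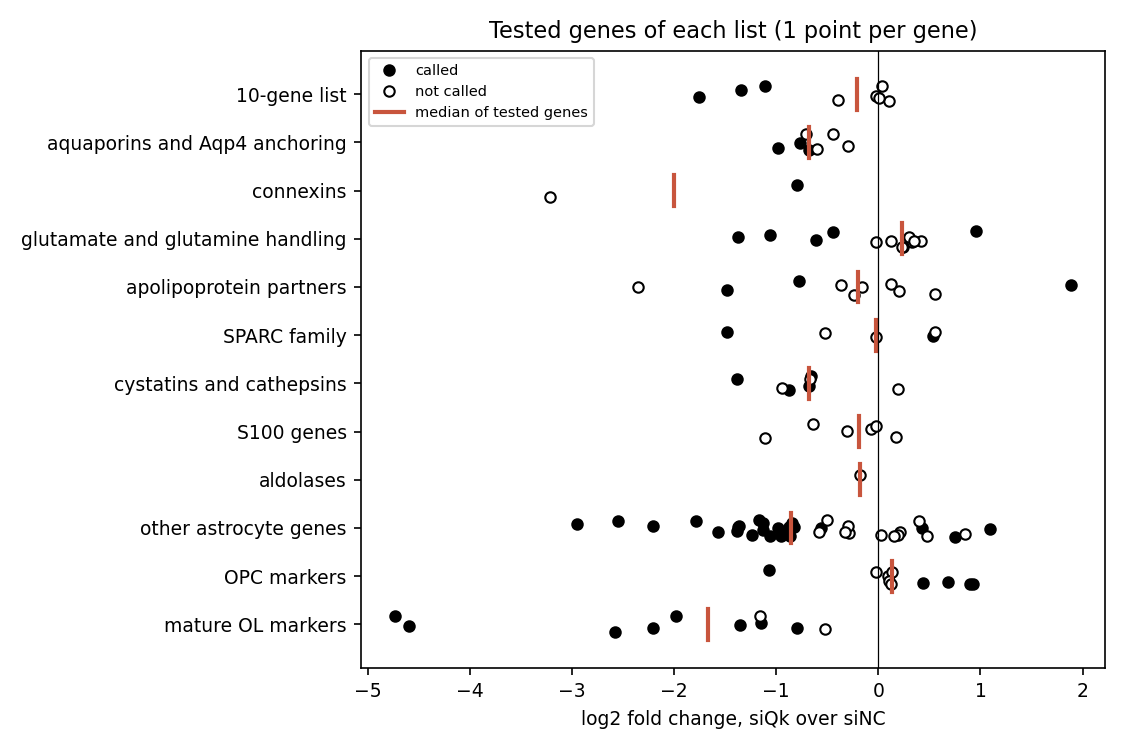
Log2 fold change of siQk over siNC (x axis) for the tested genes of each list (y axis, 1 point per gene, small vertical offsets for legibility only), filled where called, with red bars at each list's median. The 10-gene list has a median of -0.21, beside -0.86 for other astrocyte genes and -1.67 for mature oligodendrocyte (OL) markers. Slc1a2 and Slc1a3 are drawn both under glutamate and glutamine handling and under other astrocyte genes.

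Among 40 other genes known from astrocytes, 36 were tested and 24 (66.7%) were called, 21 lower and 3 higher, beside 31.0%, 17.2% and 13.8% of all tested genes, with a median log2 fold change of -0.86. Without siNC replicate 1, 17 were called lower and 4 higher. Slc1a2 and Slc1a3, already counted with glutamate handling above, are counted again among the 21 lower. An untested connexin is also in both this list and that of the connexins. Gfap, the astrocyte intermediate filament, went from 69.1 ± 27.9 RPKM in siNC to 9.85 ± 1.26 RPKM in siQk and fell by 2.95 on the log2 scale (SE 0.26, FDR 0.000895). Aldh1l1, a folate enzyme used to mark astrocytes, fell by 2.21 from 7.02 ± 0.826 to 1.69 ± 0.254 RPKM, and the potassium channel Kcnj10 fell by 0.95 from 104 ± 18.4 to 59.8 ± 8.22 RPKM. The endothelin receptor Ednrb fell by 1.78 and the sodium pump subunit Atp1b2 by 0.84. Fabp7, a fatty acid-binding protein of radial glia and glial progenitors, rose by 1.09 from 1169 ± 256 to 2786 ± 209 RPKM, and the other 2 that rose were Sox9 (0.42) and Ppp1r3c (0.75). Id3 (log2 fold change 0.19, FDR 0.125) was not called. The summed RPKM of the 40 genes was 2865 to 3354 in siNC and 3731 to 4258 in siQk, and without Fabp7 it was 1764 to 2184 and 1180 to 1307.

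**Figure D5:**
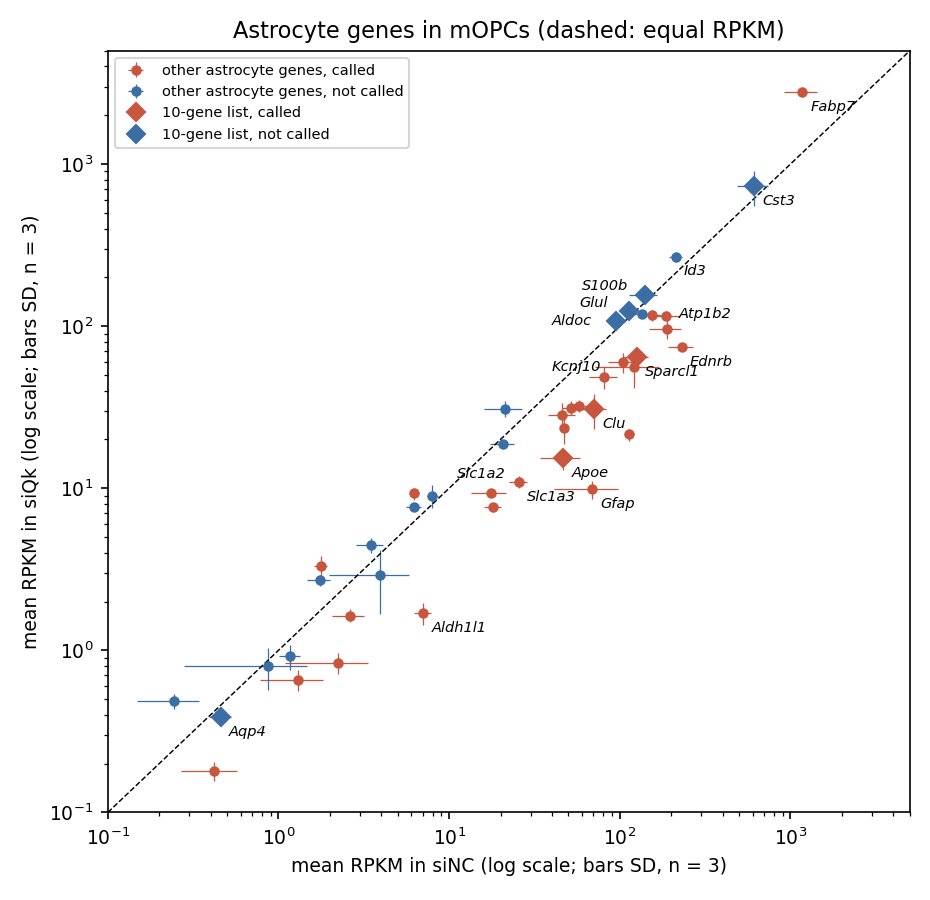
Mean RPKM in siNC (x axis) and in siQk (y axis), both on log scales with SD bars (n = 3), for the 8 tested astroglial genes (diamonds) and 36 other tested astrocyte genes (circles), red where called; the dashed line marks equal RPKM. Apoe, Clu and Sparcl1 lie below the line with Gfap, Slc1a2, Slc1a3, Kcnj10 and Aldh1l1, while Cst3, S100b, Glul and Aldoc lie near it and Fabp7 lies above.

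Mature oligodendrocyte markers were lower in siQk, and the calls among OPC markers were mainly toward higher levels. Of 10 tested OPC markers 4 were called higher, 1 lower and 5 were not called, with a summed level of 1055 to 1132 RPKM in siNC and 1277 to 1440 RPKM in siQk. All 10 markers of mature oligodendrocytes were tested and 8 were called lower (80.0%, beside 17.2% of all tested genes), with a summed level of 3400 to 5947 RPKM in siNC and 1474 to 2203 RPKM in siQk and a median log2 fold change of -1.67. Of 10 tested neuron markers 3 were called higher and 7 were not called (median 0.59), and their summed levels overlapped, at 203 to 285 RPKM in siNC and 217 to 266 RPKM in siQk. Without siNC replicate 1 the counts for OPC and neuron markers were the same, and 7 mature oligodendrocyte markers were called lower. The part of these changes in the fall of Apoe, Clu and Sparcl1 was not tested.

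Markers of microglia, which also express Apoe in brain, were mostly near 0. Of 10 microglia markers 8 were at or below 0.1 RPKM in every library, C1qa and C1qb had no tags in any library, and the summed level was 0.734 to 3.32 RPKM in siNC and 0.343 to 0.413 RPKM in siQk. The 1 microglia marker tested, P2ry12, fell by 3.16 (FDR 0.00886). At 0.669, 3.20 and 1.19 RPKM it made up most of this sum in each siNC library. Of 10 fibroblast and vascular markers 7 were at or below 0.1 RPKM in every library, Cldn5 was at 0 throughout, and the 1 that was tested was not called by edgeR's quasi-likelihood test, by DESeq2, by limma voom or by edgeR's other tests, nor at an unadjusted P below 0.05. Of 6 ependymal markers 2 were tested and Foxj1 was called lower, with a summed level of 13.7 to 19.1 RPKM in siNC and 10.9 to 12.6 RPKM in siQk.

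Because Qki proteins bind ACUAAY, each gene's 3′UTR, taken as the longest one annotated, was searched for ACUAAC and ACUAAU on the transcribed strand. The sites of Clu and Gja1 are shown because the members differ in them, with the motif in capitals and 30 bases of reference sequence from the GENCODE transcripts each.
Clu site 1: uggauucuguacACUAAUgccugcacuugc
Clu site 2: uucccccacgcaACUAAUccaauaaaagcc
Gja1 site 1: agugcacauguaACUAAUuuauuugaacug
Gja1 site 2: ggacaaugagaaACUAAUuuguuugacauu
Clu held 2 motifs in a 3′UTR of 230 nt, at 149 and 198 nt after the stop codon, the latter followed within a few bases by the polyadenylation signal aauaaa. Among 11856 tested genes with a 3′UTR of at least 50 nt, 14.1% held 2 or more motifs. Counting Clu itself, 0.0928% had at least as many per length as Clu. Its 3′UTR was short beside the median of 1287 nt over these genes, and only Clu was ranked in this way. S100b held 1 motif in 1091 nt and Aqp4 2 in 3955 nt, and Gja1, which was not tested, held 2 in 1720 nt. No motif was found in the 3′UTR of Apoe, Sparcl1, Cst3, Glul, Aldoc or Gjb6. Thus 3 of 8 tested members (37.5%) had a motif, against 36.1% of all tested genes with such a 3′UTR, and of the 3 members that fell only Clu did. These matches are descriptions of sequence and say nothing of binding.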

How the data were processed

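Per the labels and the study's methods, poly(A) libraries (TruSeq v2) from mOPCs were sequenced as 75-nt paired ends, aligned by OLego to mm10 and quantified per gene with Quantas. Tool versions and the annotation are not given in the sources used here. The authors deposited, for each library, an estimated count of tags per gene (not normalized, with decimals for 23.1% to 26.2% of genes), exon length and RPKM. Replicate numbers follow the labels, and replicates differed beyond sampling noise. Chi-square per degree of freedom was 36.3 to 74.0 between siQk libraries and 185 to 326 between siNC libraries.

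Counts were rounded and fitted with edgeR 4.0.16 (R 4.3.3, quasi-likelihood, TMM) without a replicate block over all 12505 genes with average logCPM above 0, with P below 0.01 and FDR below 0.1 as in the study's methods. Standard errors were the log2 fold change divided by the root of F. RPKM was not tested but for an exact permutation test per member (scipy 1.17.1). Alternatives were DESeq2 1.42.0, limma 3.58.1 (voom), other scalings, filters and edgeR tests, thinning to the smallest library, a replicate block and leaving out each library. Counts of siQk against siNC were also simulated (12504 genes, 196 changed). Every gene had the same dispersion (biological coefficient of variation 0.146), and every changed gene the same size of change. There 99.0% of changed genes were recovered, and 8.06% of calls were of unchanged genes. Real genes differ in dispersion and size of change, so these shares do not carry over to the data. Counting is precise at these depths except for Gja1, Gjb6 and other genes of a few tags.

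Members and gene lists were chosen with earlier results of these data known, so no count over a list is independent evidence. Named were Qk, all 10 members, the 4 most abundant genes of each list and Gjb1, Aldoa, Slc1a2, Slc1a3, Kcnj10, Aldh1l1, Gfap, Sparc, Apod and Abca1. Some genes and a sequence that this rule would name are not reported here. Positions and 3′UTRs came from GENCODE M21 (mm10). The position of Aqp4 is left out too.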

Additional observations from a re-analysis of the deposited data

How the results depend on the processing

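Apoe, Clu and Sparcl1 were called lower, and no other member was called, under all 18 alternatives. Their log2 fold changes ranged from -1.98 to -1.60, from -1.54 to -1.18 and from -1.23 to -0.94, with FDR up to 0.0162, 0.0187 and 0.0193. Aqp4 ranged from -0.52 to -0.25 (FDR 0.0448 to 0.278). Leaving out each library in turn gave 2478 to 3704 changed transcripts, beside 3879 with all libraries, the lowest without siQk replicate 1, and 18 to 24 changed among the other astrocyte genes, beside 24.

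The sign of members near 0 was not stable. S100b was -0.0014 with DESeq2 size factors, -0.0015 with DESeq2's Wald test, -0.0028 after thinning, and -0.15 to 0.16 when a library was left out. Glul was 0.042 with upper quartile normalization, 0.13 with library size only, 0.0047 without the low-count filter, and -0.10 to 0.066 when a library was left out. On leaving out a library, Aldoc ranged from -0.067 to 0.10 and Cst3 from -0.061 to 0.29. Of the called genes, 55.4% were lower in siQk with TMM and 44.4% under upper quartile scaling. The share was 31.4% when scaled by library size alone, where the median log2 fold change of all genes was 0.16 and Apoe, Clu and Sparcl1 were at -1.60, -1.21 and -0.96.

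Samples sharing a replicate number did not deviate together (correlations -0.053, -0.15 and -0.34). With 3 replicates this gives no sign of pairing but cannot exclude that cultures were matched. With a replicate block 2796 transcripts were changed, 2701 of them among the 3879, with Apoe at -1.73, Clu at -1.37 and Sparcl1 at -1.10, all called. It changed the call of no member, and 18 of the other astrocyte genes were called. Depth limits Gja1 and Gjb6 alone among the members.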
